A study of Homo sapiens with 14 samples.

Results

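The genes described here are 4 ligands of the epidermal growth factor (EGF) receptor (EREG, AREG, TGFA and HBEGF), 3 receptors of the ERBB family (EGFR, ERBB2 and ERBB3) and 2 inhibitors of these receptors (ERRFI1 and LRIG1). They were picked by symbol, and all 9 were found among the 36601 genes of the single-cell matrices and the 60669 of the bulk tables. SW620, an established line of human colorectal cancer cells, was grown for up to 15 days without passage, and its cells form colonies. SW620-TET2CD cells overexpress the catalytic domain of TET2, an enzyme that oxidises 5-methylcytosine. In the single-cell experiment the study describes the SW620 cells as expressing FLAG in place of TET2CD, which the sample labels do not mention. Whether the bulk SW620 cells carried that vector was not given in the sources used here. Single-cell RNA-seq was done for both lines at days 6, 9, 12 and 15, with 1 library for each line and day. Bulk RNA-seq was done on day 6 on SW620 and on SW480, another colorectal cancer line. The study describes SW480 as coming from the same patient as SW620 and as having TET2 in the nucleus. Bulk RNA-seq was also done on day 15 cells of SW620 and SW620-TET2CD taken from inside or outside their colonies. Each bulk condition again had 1 library. No condition had a replicate, so days, lines or locations stand in for repeated cultures in every p-value below, and culture-to-culture variation was not measured. Cells outside the colonies were those that passed a strainer after a short enzyme treatment, whereas colonies held back by it were digested further with trypsin, so location and handling cannot be told apart.

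EGF family ligands are made as membrane-bound precursors that proteases such as ADAM17 cut free. Ligand binding pairs EGFR with itself or with another ERBB receptor and starts signalling through RAS and the MAP kinases. ERBB2 has no known ligand, and ERBB3 has little kinase activity of its own and signals through its partners. ERRFI1 (also called MIG6) binds and blocks the active EGFR kinase, and its own transcription rises with ERK signalling. LRIG1 promotes the breakdown of ERBB receptors and marks a set of stem cells in the intestinal crypt.

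Each single-cell library held 3894 to 8154 kept cells and 48186195 to 74185723 UMIs, that is, counted RNA molecules. Levels are given as CPM, the UMIs of a gene per 1000000 UMIs of all kept cells of a library. The epithelial marker EPCAM lay between 495.6 and 638.8 CPM in every library, while the leukocyte marker PTPRC had at most 1 UMI. EPCAM is 1 of a list of 8 epithelial genes, whose sum lay between 9295 and 14012 CPM. Of the 7 tested, 1 was higher and 1 lower on days 12 and 15 than on days 6 and 9. Any pair of libraries shared between 11 and 31 cell barcodes. In both lines the summed level of 6 mitotic genes dropped from 897.5 to 1111 CPM on days 6 and 9 to 117.4 to 254.9 CPM on days 12 and 15. Over the same days the sum of 8 hypoxia genes went from 49.9 to 109.9 CPM up to 408.4 to 589.3 CPM, and that of 8 genes induced by cell dissociation from 1254 to 1879 CPM up to 1947 to 3327 CPM. All 6 mitotic genes were lower in the late libraries, and 7 of 8 hypoxia genes and 5 of 8 dissociation genes were higher. Of 4 leukocyte genes CD68 and LYZ were higher, and the sum of the list went from 7.23 to 17.1 CPM up to 23.7 to 57.4 CPM. Of 4 fibroblast genes DCN and COL1A1 were higher and LUM lower, and their sum dropped from 16.4 to 28.5 CPM to 8.11 to 12.6 CPM. Of 4 endothelial genes VWF was higher, and their sum lay between 0.379 and 1.39 CPM in all libraries. The part of these shifts in the results below was not tested.

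EREG and EGFR are the members with the highest log2 fold changes between the lines below, although that of EGFR carries no weight, as explained there. The sequence around their start sites is shown because the enzyme that the lines differ in acts on C in CG pairs. The study describes this enzyme as mainly cytoplasmic in the early part of the culture. It reports DNA demethylation late in the culture, in cells outside the colonies. The EREG difference between the lines was present in the early part too, as given below. Whether CG pairs have a part in the differences between the lines was not tested. The RefSeq promoter table of GRCh38.p14 held 8 of the 9 members (not ERBB3), as windows of 300 bases from 250 before to 50 after a start. Lower case marks the sequence and capitals mark each CG pair, 5′ to 3′ on the plus strand.
EREG, chr4:74364895-74365194: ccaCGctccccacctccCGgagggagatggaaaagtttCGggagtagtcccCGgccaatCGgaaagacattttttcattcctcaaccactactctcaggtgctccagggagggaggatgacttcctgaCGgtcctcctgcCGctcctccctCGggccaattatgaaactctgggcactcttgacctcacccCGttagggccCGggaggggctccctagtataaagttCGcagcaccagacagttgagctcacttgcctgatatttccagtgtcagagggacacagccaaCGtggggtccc
EGFR, chr7:55018767-55019066: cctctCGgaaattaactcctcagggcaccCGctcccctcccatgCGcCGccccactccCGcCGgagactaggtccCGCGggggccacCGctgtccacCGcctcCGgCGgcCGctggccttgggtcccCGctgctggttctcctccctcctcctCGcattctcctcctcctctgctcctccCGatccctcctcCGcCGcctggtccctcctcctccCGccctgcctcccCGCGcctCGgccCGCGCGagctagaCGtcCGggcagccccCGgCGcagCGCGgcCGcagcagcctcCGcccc
The EREG window held 12 CG pairs, more than 46.9% of 35116 such windows, whose median is 14. The EGFR window held 33, more than 82.8% of them. AREG, whose gene starts 56.4 kb beyond the end of EREG on chromosome 4 (EREG 74365145 to 74388749, AREG 74445136 to 74455005, both on the plus strand, GENCODE v44 on GRCh38), had 27 CG pairs and a match to TGACGTCA, the palindromic cAMP response element found in 1.85% of windows. ERRFI1 had 47 CG pairs, more than 97.6% of windows. The AP-1 motif TGANTCA, searched on both strands and present in 7.71% of windows, was matched in that of ERBB2 and in downstream start windows of EGFR and LRIG1. ACGTG, the core of the hypoxia response element, is present in 21.4% of windows and was matched in that of EREG and in windows of LRIG1. No methylation was measured in the files used here, and a match is not a binding site.

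The ligands were followed over the days in culture. AREG, an EGFR ligand named amphiregulin, was at 5.47, 7.39, 11.2 and 50.2 CPM in SW620 and at 12.4, 9.04, 17.4 and 32.6 CPM in SW620-TET2CD on days 6, 9, 12 and 15. Day 15 stood far above the other days in both lines, and the early and late days overlapped because day 6 of SW620-TET2CD lay above day 12 of SW620. TGFA (transforming growth factor alpha) was at 5.41, 5.20, 12.3 and 17.0 CPM in SW620 and at 5.07, 5.64, 11.2 and 18.8 CPM in SW620-TET2CD. HBEGF, the heparin-binding ligand, was at 4.11, 4.83, 11.4 and 18.6 CPM in SW620 and at 3.88, 4.18, 7.74 and 11.3 CPM in SW620-TET2CD. For TGFA and HBEGF every late library lay above every early one. EREG (epiregulin) had another course, with 7.005, 5.18, 3.13 and 6.03 CPM in SW620 and 15.1, 8.32, 5.17 and 12.5 CPM in SW620-TET2CD, so that it was lowest on day 12 in both lines and its early and late libraries overlapped.

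Among the receptors ERBB3 had the highest counts. It was at 58.7, 74.9, 184 and 213 CPM in SW620 and at 47.6, 76.2, 137 and 210 CPM in SW620-TET2CD. ERBB2 was at 7.14, 8.78, 14.4 and 12.3 CPM in SW620 and at 6.00, 7.66, 11.5 and 15.2 CPM in SW620-TET2CD. Both receptors were higher in every late than in every early library. EGFR itself was almost undetected in SW620, at 0.0948, 0.129, 0.0591 and 0.114 CPM, which are 7, 7, 3 and 6 UMIs. In SW620-TET2CD it was at 1.06, 0.689, 0.685 and 1.92 CPM, from 79, 50, 33 and 98 UMIs.

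The inhibitors moved in opposite directions. ERRFI1 went from 6.22 and 8.75 CPM on days 6 and 9 to 53.0 and 72.1 CPM on days 12 and 15 in SW620, and from 6.24 and 6.62 to 39.9 and 54.8 CPM in SW620-TET2CD. LRIG1 fell in steps, with 14.1, 10.9, 10.0 and 5.26 CPM in SW620 and 11.0, 10.4, 10.1 and 7.90 CPM in SW620-TET2CD. Its groups were separate by a small margin only, since day 9 of SW620-TET2CD and day 12 of that line lay close together.

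**Figure D1:**
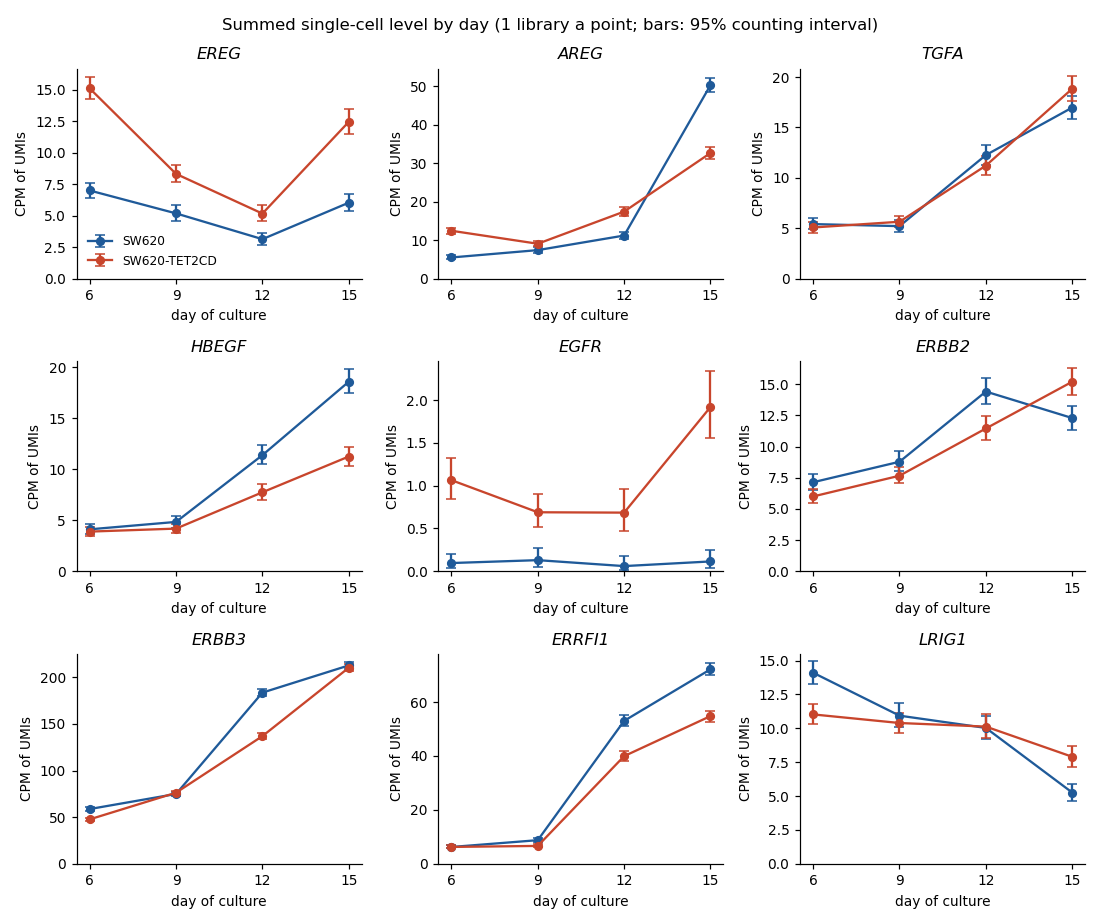
CPM of the 9 genes (vertical axes, linear from 0) against day of culture in SW620 (blue) and SW620-TET2CD (red). Each point is 1 library, and bars are exact Poisson 95% intervals, which cover counting error only. ERRFI1 and ERBB3 climb after day 9 in both lines, EREG is lowest on day 12, and EGFR is seen mainly in SW620-TET2CD.

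Late libraries (days 12 and 15) were tested against early libraries (days 6 and 9), blocked by line (edgeR's quasi-likelihood test on summed UMIs, Benjamini-Hochberg adjustment over 16526 genes, threshold 0.05). Of the 9 members, 6 were higher and 1 lower in the late libraries, where 58% of all genes tested passed, 29.4% higher and 28.6% lower. The median log2 fold change of the members was 1.37 against 0.04 for all genes. ERRFI1 rose most, by a log2 fold change of 2.87 ± 0.18 (SE, edgeR adjusted p = 7.5e-06), followed by AREG at 1.65 ± 0.45 (0.00983), ERBB3 at 1.43 ± 0.18 (0.000122), HBEGF at 1.40 ± 0.22 (0.000398), TGFA at 1.37 ± 0.18 (0.000139) and ERBB2 at 0.75 ± 0.13 (0.000859). LRIG1 was lower by −0.59 ± 0.19 (edgeR adjusted p = 0.0219). EREG, at −0.52 ± 0.31 (0.172), and EGFR, at 0.19 ± 0.40 (0.708), did not pass. Of all genes, 29.9% had every late library above every early one and 22.4% the reverse, beside 5 members above and 1 below. In cells without a mitotic UMI, ERBB2 was at 0.33 (adjusted p = 0.105) and LRIG1 at −0.55 (0.0746), whereas the other 5 members called kept their call. AREG rested in part on the SW620 library of day 15, without which it was at 0.89 (adjusted p = 0.00784), and it was at 2.30 in cells without a mitotic UMI. LRIG1 also missed the threshold with upper-quartile factors (−0.42, 0.0974), which moved the median of all genes from 0.04 to 0.21 and the split of calls to 6250 higher and 3636 lower, and without SW620 of day 6 (−0.49, 0.0719) or SW620-TET2CD of day 15 (−0.54, 0.0631).

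Other genes of the pathway were read from fixed lists in the same fit, where 29.4% of all genes were higher and 28.6% lower. Of 5 genes that act in ligand shedding, 4 were higher in the late libraries and none lower, led by RHBDF1, a regulator of ADAM17 (1.64 ± 0.19), ADAM17 itself (0.95 ± 0.16) and ADAM10 (0.60 ± 0.13). Of the remaining ligands and ERBB4, 3 of 8 had enough counts to be tested, and NRG4, a ligand of ERBB4, passed at 1.35 ± 0.19. EGF and NRG3 had no UMI in any library. Of 16 RAS and MAP kinase cascade genes, 7 were higher, led by the adaptor GAB1 (1.62 ± 0.27), the exchange factor SOS2 (1.17 ± 0.16) and the kinase BRAF (0.74 ± 0.14), and 3 were lower, namely HRAS (−1.85 ± 0.23), ARAF (−0.48 ± 0.15) and NRAS (−0.44 ± 0.12). Of 15 genes known as outputs of ERK signalling, 10 were higher and none lower. DUSP5 (3.09 ± 0.40) and DUSP6 (1.60 ± 0.14), which remove phosphate from ERK, and the receptor EPHA4 (2.37 ± 0.31) had the highest rises. Of 8 tested genes of a list made for receptor removal, 5 were higher. In front were the ubiquitin ligase CBLB (1.46 ± 0.21), its adaptor SH3KBP1 (0.76 ± 0.16) and LRIG2 (0.63 ± 0.14). LRIG2 is a relative of LRIG1 that need not share its role. The medians of these lists were 0.60 for shedding, 0.04 for the cascade, 0.69 for ERK outputs and 0.61 for receptor removal, beside 0.04 for all genes.

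The share of cells with at least 1 UMI was compared after each cell was thinned to 2000 UMIs, which left out 18 to 89 cells per library. ERBB3 was found in 11.2% of SW620 cells on day 6 and in 33.9% on day 15, and in 9.95% and 32.9% of SW620-TET2CD cells. ERRFI1 went from 1.16% to 12.7% in SW620 and from 1.16% to 10.5% in SW620-TET2CD. AREG went from 0.832% to 8.16% and from 1.79% to 5.87%. Without thinning ERBB3 was found in 50.7% of SW620 cells on day 6 and in 71.3% on day 15, with up to 7 UMIs in a cell on day 6 and up to 11 on day 15. Each library held cells of 1 line only, so the share that free RNA gives could not be measured.

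The lines were compared on the same libraries with the day as a block. Of the 9 members, 2 were higher in SW620-TET2CD and none lower, where 4.21% of all genes passed (2.37% higher). EGFR was at a log2 fold change of 3.26 ± 0.30 (SE, edgeR adjusted p = 7.14e-05), fitted against the 3 to 7 UMIs of each SW620 library. It passed the filter on low counts only through the SW620-TET2CD libraries, so its place in the count carries no weight. Without the cells of 3 or more TET2 UMIs it was at 2.66. EREG was higher by 0.80 ± 0.11 (edgeR adjusted p = 0.00151), 1.74-fold, and was higher on all 4 days, but without the cells of 3 or more TET2 UMIs it was at 0.40 and did not pass (0.0719). HBEGF, at −0.51 ± 0.14 (adjusted p = 0.0694), and ERRFI1, at −0.41 ± 0.11 (0.066), just missed the threshold and passed in several alternative fits. AREG was at 0.25 ± 0.25 (0.725), being higher in SW620-TET2CD on days 6, 9 and 12 and lower on day 15. Without the SW620 library of day 15 it was at 0.67 (adjusted p = 0.0265), and without SW620-TET2CD of that day at 0.67 (0.0223). The 95% intervals of the differences that did not pass ran from −0.30 to 0.11 for TGFA, from −0.32 to 0.18 for LRIG1, from −0.51 to −0.06 for ERBB3 and from −0.43 to −0.01 for ERBB2. Among the listed genes, EPHA4 was lower by −1.66 ± 0.11. CBLC, a relative of CBL, also passed, with 31 to 46 UMIs in each SW620-TET2CD library and 0 to 3 in each of SW620, but it entered the test only through the SW620-TET2CD libraries. Of the marker lists, 1 of 2 tested endothelial genes was higher (PECAM1 1.88), of 2 tested leukocyte genes LYZ was higher (0.83) and CD68 lower (−1.08), and of 8 hypoxia genes 1 was higher and 2 lower. No mitotic, dissociation, epithelial or fibroblast gene tested passed, and the part of these lists in the results was not tested. Whether the change over time differed between the lines was tested by an interaction term. None of the 9 members passed, nor any gene (edgeR, 130 at an unadjusted p under 0.05, DESeq2 0), with AREG at −1.21 ± 0.83 and HBEGF at −0.64 ± 0.41. On counts simulated without extra spread of single genes, this test found 9% of genes given a log2 difference of 1. It found 69% of those given 2.

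**Figure D2:**
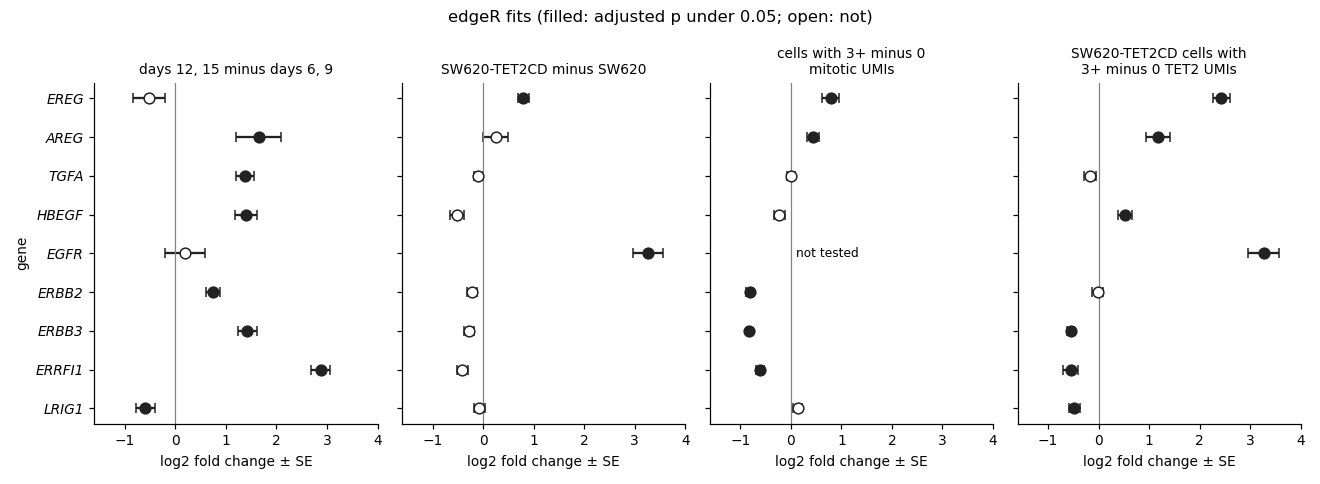
Log2 fold change with its standard error (horizontal axes) for the 9 genes in 4 single-cell comparisons. Filled points passed an edgeR adjusted p of 0.05, and EGFR had too few counts for the comparison by mitotic UMIs. EREG lies to the left of 0 over time and to the right in the other panels, while ERBB3 lies to the right over time and to the left in the others.

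SW620-TET2CD cells were further grouped by their TET2 UMIs, since these were spread unevenly among them. Cells with 3 or more TET2 UMIs accounted for 12.9% of kept cells on day 6, 9.23% on day 9, 6.86% on day 12 and 4.18% on day 15, and SW620 libraries held at most 1 such cell each. Counts of the introduced and of the cell's own TET2 were not told apart. EREG was at 6.20 CPM in day 6 cells with no TET2 UMI, at 15.6 with 1, at 32.9 with 2 and at 50.4 with 3 or more. On day 9 the same groups held 5.18, 14.6, 22.9 and 17.5 CPM, on day 12 they held 3.03, 7.59, 7.26 and 23.2 CPM, and on day 15 they held 8.01, 26.2, 30.0 and 39.8 CPM. On every day the cells without a TET2 UMI were lowest. On day 6 the cells with 3 or more TET2 UMIs held 49.1% of the EREG UMIs of their library, and on days 9, 12 and 15 they held 21.7%, 34.9% and 17.3%. Cells without a TET2 UMI held 28.7%, 46.5%, 46.6% and 51.6% on the 4 days. EGFR went from 0.270 to 4.21 CPM on day 6, from 0.240 to 3.74 on day 9, from 0.418 to 2.13 on day 12 and from 0.952 to 7.23 on day 15 between cells with none and with 3 or more, the last from 20 UMIs.

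AREG was at 7.15 CPM in cells with none and 33.5 CPM in cells with 3 or more on day 6, at 7.77 and 13.5 on day 9, at 14.3 and 42.4 on day 12 and at 31.2 and 34.7 on day 15. HBEGF was at 3.31 and 6.86 CPM on day 6, 3.73 and 5.07 on day 9, 7.57 and 9.87 on day 12 and 10.6 and 14.8 on day 15. Both ligands were higher in the cells with 3 or more TET2 UMIs in all 4 libraries, AREG by little on day 15. ERBB3 was lower in them in all 4, at 52 and 32.0 CPM on day 6, 79.7 and 59.5 on day 9, 140.8 and 107.8 on day 12 and 215.4 and 168.1 on day 15. ERRFI1 was at 5.91 and 6.76 CPM on day 6 and 6.92 and 6.01 on day 9, but at 42.1 and 27.0 on day 12 and 59.0 and 31.1 on day 15, so its gap lay in the late libraries. LRIG1 was at 11.6 and 9.60 CPM on day 6 and at 8.18 and 5.79 on day 15.

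Over the 4 libraries, cells with 3 or more TET2 UMIs were compared with cells with none, paired by library. Of the 9 members, 4 were higher and 3 lower, where 16.5% of all 14964 genes tested passed (8.87% higher and 7.6% lower). EGFR, at 3.26 ± 0.30 (SE, edgeR adjusted p = 1.01e-05), passed the filter on low counts through the cells with TET2 UMIs, where it had 8 to 46 UMIs a library, so its place in the count carries no weight. EREG was higher by 2.43 ± 0.18 (1.36e-06), AREG by 1.17 ± 0.24 (0.00532) and HBEGF by 0.53 ± 0.14 (0.0249). ERBB3 was lower by −0.55 ± 0.07 (0.00013), ERRFI1 by −0.55 ± 0.15 (0.0237) and LRIG1 by −0.48 ± 0.11 (0.0112), while TGFA was at −0.16 ± 0.12 and ERBB2 at −0.02 ± 0.11. The calls of EREG and ERBB3 held without each library in turn. AREG missed the threshold without day 12 (adjusted p = 0.077), LRIG1 without day 9 (0.0642), ERRFI1 without day 12 (0.168) or day 15 (0.114), and HBEGF without day 6 (0.164), day 9 (0.0879) or day 12 (0.0682). None of the 6 mitotic genes passed in this comparison, and 4 of 15 ERK outputs were higher (CCND1 0.46, DUSP6 0.35, EPHA2 0.33 and SPRY2 0.28) and 1 lower (PHLDA1 −0.28). Of 8 hypoxia genes 2 were higher (BNIP3 1.77 and ADM 1.02) and 2 lower (VEGFA −0.73 and CA9 −0.87), and of 7 tested epithelial genes 2 were higher (LGALS4 2.01 and CDX2 0.59) and 2 lower (EPCAM −0.23 and KRT19 −0.31). LYZ, 1 of 2 tested leukocyte genes, was higher by 1.499, PECAM1, the 1 tested endothelial gene, by 2.49, and LUM, 1 of 2 tested fibroblast genes, was lower by −0.78. None of the 8 dissociation genes passed. The part of these genes in the results was not tested. The cells with 3 or more TET2 UMIs were deeper, with a median of 10002 against 8405 UMIs on day 6 and of 11132 against 8042 on day 15.

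When only SW620-TET2CD cells without a TET2 UMI were set against SW620, an alternative chosen after the data had been seen, EREG differed by −0.04 (95% interval −0.27 to 0.20, edgeR adjusted p = 0.926). HBEGF was lower by −0.62 (−0.91 to −0.34, adjusted p = 0.03). EGFR had 13 to 39 UMIs in these cells of each library, or 0.240 to 0.952 CPM, beside 3 to 7 UMIs and 0.0591 to 0.129 CPM in SW620, and it again entered the fit only through the group where it was higher.

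**Figure D3:**
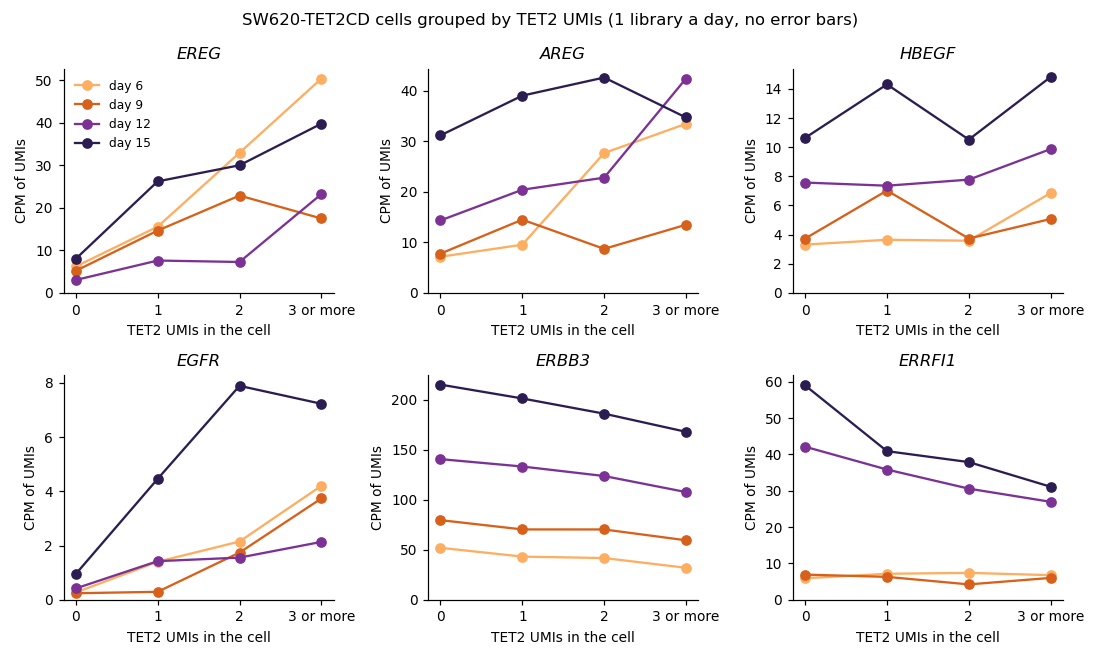
CPM of 6 genes (vertical axes, linear from 0) in SW620-TET2CD cells with 0, 1, 2 and 3 or more TET2 UMIs, 1 line for each day, with 1 library a day and no error bars. EREG is lowest in cells without a TET2 UMI on every day, and ERBB3 is lowest in cells with 3 or more. The points of EGFR rest on few UMIs, as on day 9 with 13 in cells with none and 2 in cells with 1.

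Cells with 3 or more UMIs of the 6 mitotic genes were compared with cells with none in each of the 8 libraries. The first class held 60.2% to 77.2% of kept cells on days 6 and 9 and 6.90% to 18.0% on days 12 and 15, so it is a range of UMIs and not a phase of the cell cycle. Its cells were deeper in every library, with a mean of 14002 against 10149 UMIs in SW620 on day 6, and the part of depth in the results was not tested. Of the 8 members with enough counts, 2 were higher and 3 lower in this class, where 57.6% of 14295 genes passed (27.7% higher and 29.9% lower). With upper-quartile factors 20.3% were higher and 40.7% lower, the median of all genes moved from −0.035 to −0.14, and HBEGF also passed as lower (−0.33, edgeR adjusted p = 0.0163). ERBB3 was at 51.8 CPM in SW620 cells with 3 or more and 111 CPM in those with none on day 6, at 137 and 221 CPM on day 15, and lower in the class with 3 or more in all 8 libraries (−0.83 ± 0.05, edgeR adjusted p = 1.37e-08). ERBB2 (−0.82 ± 0.08, 9.32e-07) and ERRFI1 (−0.61 ± 0.08, 2.3e-05) were lower in all 8 libraries as well. EREG was higher by 0.79 ± 0.18 (0.00167), as in day 15 SW620-TET2CD cells with 28.5 against 9.41 CPM, although in SW620 of day 9 it was at 5.35 against 5.44 CPM. AREG was higher by 0.44 ± 0.12 (0.00667), with SW620 of day 9 again the exception at 7.08 against 7.38 CPM. HBEGF (−0.23 ± 0.11, 0.0941), LRIG1 (0.14 ± 0.09, 0.184) and TGFA (0.01 ± 0.08, 0.948) did not pass. In the same comparison all 8 dissociation genes, 5 of 8 hypoxia genes and 6 of 7 tested epithelial genes were lower in the class with 3 or more, and their part in these results was not tested.

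In bulk RNA-seq, levels are in TPM, which is scaled for gene length, so genes may be compared. In bulk samples fewer cells of a type and less RNA per cell cannot be told apart. In SW620 on day 6 ERBB3 stood at 98.4 TPM, ERBB2 at 20.4, LRIG1 at 17.8, TGFA at 16.5, ERRFI1 at 7.58, AREG at 3.01, HBEGF at 2.44, EREG at 1.89 and EGFR at 0.05 TPM. SW480 on day 6 held 17.4 TPM of EGFR and 17.7 TPM of ERBB3, about equal levels of these receptors, with ERBB3 the slightly higher. On the log2(TPM + 1) scale SW480 minus SW620 was 4.13 for EGFR, −2.41 for ERBB3 and −1.14 for EREG (0.31 against 1.89 TPM), and the other 6 members differed by less than 1. These sizes depend on the pseudocount for genes near 0 TPM. With 0.1 TPM added in place of 1, EGFR, which had 3 expected counts in SW620, was at 6.86, EREG at −2.28 and ERBB3 at −2.47. From SW620 of day 6 to the inside and then the outside cells of its day 15 colonies, ERRFI1 went from 7.58 to 35.2 and 31.7 TPM, AREG from 3.01 to 10.7 and 9.72 TPM, and HBEGF from 2.44 to 6.42 and 5.51 TPM. ERBB3, in contrast, was at 115.4 and 97.3 TPM on day 15 beside 98.4 on day 6, and TGFA at 20 and 25.02 beside 16.5. On the log2(TPM + 1) scale, day 15 minus day 6 was 0.23 inside and −0.02 outside for ERBB3. It was 0.26 and 0.57 for TGFA, and 0.32 and 0.14 for ERBB2. The single-cell fit over time, which covered both lines, gave larger changes of 1.43, 1.37 and 0.75. The 15 ERK outputs summed to 1157 TPM on day 6 and to 1108 inside and 1165 TPM outside on day 15. The 8 dissociation genes went from 1617 TPM down to 882.7 and 889.2 TPM, whereas their single-cell sum was higher on the late days. The hypoxia genes went from 103.5 up to 234.1 and 246.0 TPM and the mitotic genes from 581 down to 146.5 and 200.4 TPM, the directions of the single-cell sums. The bulk values come from single libraries with no test, and the difference between the assays was not tested.

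On day 15 EREG was at 0.60 TPM inside and 1.15 outside the colonies of SW620, and at 4.39 inside and 19.9 outside those of SW620-TET2CD. Both SW620-TET2CD libraries lay above both of SW620, and in each line the outside cells were higher. EGFR was near 0 in both SW620 libraries, at 0.03 and 0.05 TPM from 7 expected counts each, and at 0.57 inside and 2.97 TPM outside in SW620-TET2CD. TET2 was at 1.15 and 1.29 TPM in SW620 and at 38.1 and 124.3 TPM in SW620-TET2CD. AREG was at 10.7 and 9.72 TPM in SW620 and 22.8 and 30.2 TPM in SW620-TET2CD. HBEGF was at 6.42 and 5.51 TPM against 26.5 and 18.0 TPM. ERRFI1 was at 35.2 and 31.7 TPM against 119.1 and 52.1 TPM, the highest being inside the SW620-TET2CD colonies. ERBB3 was lowest outside them, at 48.2 TPM beside 88.0 inside and 115.4 and 97.3 TPM in SW620. ERBB2 ranged from 16.3 to 25.7 TPM and LRIG1 from 7.91 to 16.7 TPM, both lower outside in each line.

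Outside cells were tested against inside cells over the 4 libraries of day 15 with the line as a block. No member passed, and neither did any of the 17722 genes tested (0% of them, edgeR, 1068 at an unadjusted p under 0.05, DESeq2 22). EREG was at 2.01 ± 0.23 (SE, edgeR adjusted p = 0.772), EGFR at 1.91 ± 0.53 (0.772), ERRFI1 at −0.69 ± 0.28 (0.772), LRIG1 at −0.69 ± 0.13 (0.772) and ERBB3 at −0.61 ± 0.20 (0.772). EREG passed by DESeq2 (1.97, adjusted p = 7.69e-06). On the log2(TPM + 1) scale its ratio was 1.96 in SW620-TET2CD and 0.43 in SW620. In SW620-TET2CD the outside library also held more TET2 than the inside one, 124.3 against 38.1 TPM. Location and TET2 level cannot be told apart in that line. Between the lines, with location as a block, 2 of 9 members were higher in SW620-TET2CD and none lower, where 0.412% of all genes passed (0.288% higher). These were EREG (3.53 ± 0.24, edgeR adjusted p = 0.0304) and HBEGF (1.88 ± 0.17, 0.0457), which both missed the threshold without the block and without either SW620 library. AREG (1.32 ± 0.19, 0.0686) and ERRFI1 (1.17 ± 0.28, 0.132) did not pass. EGFR (adjusted p = 0.0601) had 7 expected counts in each SW620 library and entered the fit only through those of SW620-TET2CD, so nothing is drawn from its test. With 1 library left out and no block, EREG was at 4.64 without the SW620 outside cells, at 4.43 without the SW620-TET2CD inside cells and at 2.15 without the SW620-TET2CD outside cells. Without these SW620-TET2CD libraries in turn, ERRFI1 was at 0.53 and 1.80. AREG, HBEGF and ERRFI1 thus lay higher in SW620-TET2CD in the bulk libraries and lower in the single-cell library of the same day, at 32.6 against 50.2, 11.3 against 18.6 and 54.8 against 72.1 CPM. The difference between the assays was not tested. In bulk the 8 dissociation genes summed to 882.7 and 889.2 TPM in SW620 inside and outside and to 1502 and 1276 TPM in SW620-TET2CD, and the hypoxia genes to 234.1, 246.0, 488.8 and 266.8 TPM. In the same order the 6 mitotic genes summed to 146.5, 200.4, 43.1 and 131.7 TPM and the 4 leukocyte genes to 6.49, 10.1, 24.4 and 16.2 TPM. The 4 fibroblast genes summed to 12.3, 13.5, 7.38 and 2.79 TPM and the 4 endothelial genes to 1.04, 1.5, 0.55 and 5.53 TPM. The 8 epithelial genes summed to 7235, 7269, 6646 and 5755 TPM. The part of these lists in the results was not tested.

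**Figure D4:**
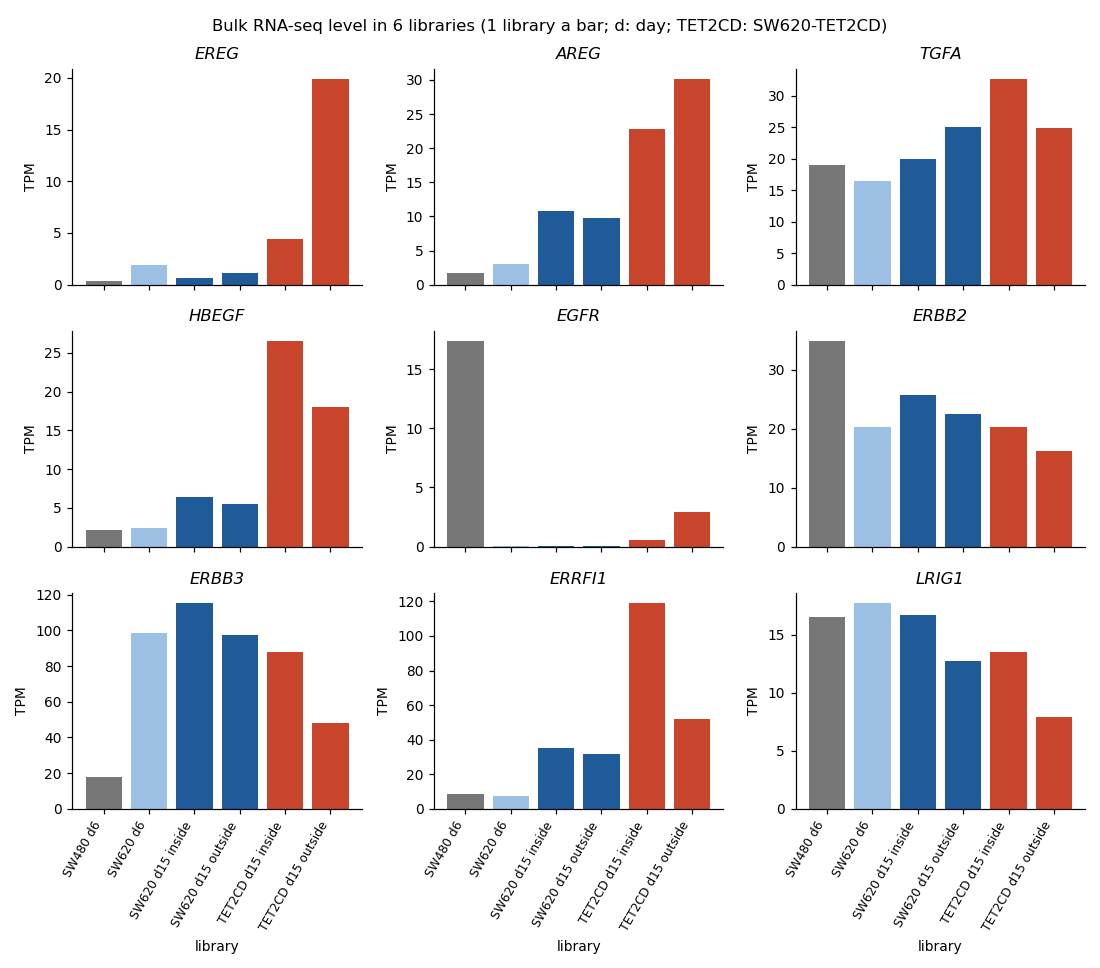
TPM of the 9 genes (vertical axes, linear from 0) in the 6 bulk libraries, 1 library a bar. EGFR stands high in SW480 only, EREG outside the SW620-TET2CD colonies, and ERRFI1 inside them.

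Genes whose level followed a member most closely over the 8 single-cell libraries were ranked among 8034 genes by Pearson's r of log2(CPM + 1), as a description in which the points share lines and days. The closest to ERBB3 were INSR, the insulin receptor (r = 0.998), FAM102A and CAMK2N1. Those closest to ERRFI1 were LEMD1 (0.997), RAC2 and SLC2A1, the last a glucose transporter. TGFA was closest to RAB5A, SPRY4 and CCPG1 (0.997 to 0.996), of which SPRY4 is a feedback inhibitor in the ERK output list. HBEGF went with ETHE1 (0.996), AREG with HABP4 (0.970), EREG with LYRM7 (0.971), EGFR with ST3GAL4 (0.972), ERBB2 with FGD5 (0.993) and LRIG1 with RAP2B (0.983).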

How the data were processed

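Single-cell libraries were made by the authors with the 10x Genomics 3′ kit v3.1, and the deposited matrices hold UMI counts per gene and barcode from Cell Ranger 4.0 against GRCh38. The deposited bulk tables hold RSEM expected counts and TPM values per gene, made by the authors after Bowtie alignment. The submitters' processing notes name mm10, a mouse build, for these tables, whereas the tables list human Ensembl identifiers. The build and annotation used were therefore not settled here, and genes were taken by those identifiers. Their expected counts summed to between 16470176 and 25840563 per library, and 45 Y copies of pseudoautosomal genes were left out.

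The study's limits on barcodes (200 to 4500 genes, 1000 to 20000 UMIs, no more than 10% of UMIs mitochondrial) kept 48282 of 67056. The study states fewer cells after quality control than these limits left, and how the others were removed was not given in the sources used here. Doublets were not called. UMIs were summed per library, or per cell class of at least 50 cells, and tested with edgeR 4.0.16 (filterByExpr, TMM factors, quasi-likelihood, two-sided) in R 4.3.3, with DESeq2 1.42.0 as an alternative. Expected counts were rounded first. All adjusted p-values are Benjamini-Hochberg values over all genes tested, with a threshold of 0.05. Shares used cells thinned to 2000 UMIs and exact binomial intervals. Sums, shares and tables were made in Python 3.11.15 (pandas 2.3.3, scipy 1.17.1, numpy 2.4.6). The fits were tested on simulated counts. With a simulated log2 change of 1, the fit over time recovered 80% of changed genes and the fit between the lines 88%. In bulk the fit of outside against inside recovered 63% and that between the lines 55%. The simulated spread followed the trend over all genes, with no extra spread of single genes and no effect besides the change. Recovery in the real data may therefore be lower.

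All 9 members are named. In other lists up to 3 genes with the highest rise and 3 with the deepest fall past the threshold were named over time and up to 2 of each between the lines. The members, lists and tests were chosen with earlier results of these data known. The alternatives were DESeq2, no filter, upper-quartile factors, other cell limits, cells without mitotic UMIs, no block, without cells of 3 or more TET2 UMIs, 2 or more UMIs for a class, a pseudocount of 0.1 TPM, TMM-scaled CPM and each library left out. Each line alone and SW620-TET2CD cells without a TET2 UMI were added after the data had been seen.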

Additional observations from a re-analysis of the deposited data

Results flagged for a closer look

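For AREG and TGFA the bulk ratio of outside to inside cells pointed in opposite directions in the lines, with 1 pair of libraries a line, so the difference was not tested. On the log2(TPM + 1) scale AREG was at −0.13 in SW620 (9.72 outside, 10.7 inside) and at 0.39 in SW620-TET2CD (30.2 outside, 22.8 inside). TGFA was at 0.31 in SW620 (25.02 outside, 20 inside) and at −0.38 in SW620-TET2CD (24.9 outside, 32.7 inside).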

How the results depend on the processing

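The groups compared share no replicate number in the labels (the bulk title of SW620 on day 6 alone ends in a number, 2), so the blocks used were line, day, location and library. Counts are of genes passing out of all tested, and the cause of each change was not tested unless fewer samples entered. Between late and early days 9587 genes passed, 6217 in cells without mitotic UMIs, 6236 in SW620 alone and 5041 in SW620-TET2CD alone. Between the lines 696 passed, 1489 with no filter, 346 with only cells without a TET2 UMI, 46 with no block and 416 to 680 without single libraries. The interaction gave 0, and 15 with no filter. Cells with and without TET2 UMIs gave 2465, and 1377 to 2560 without single libraries. Outside against inside gave 0, 22 by DESeq2 and 472 with no filter. Between the lines in bulk 73 passed, 710 by DESeq2, 2239 with no filter, 178 with upper-quartile factors, 8 with no block and 0 to 4191 without single libraries. With 3 bulk libraries no block could be kept, so line and location mix in those values.

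Of 710 log2 fold changes of members under alternatives, 613 kept direction and side of the threshold and 27 changed sign. Another 45 passed only under the alternative, and 25 passed only in the main fit. For the interaction only AREG, HBEGF and EGFR were counted. EREG, left out there, went from −0.16 to 0.088 without cells of 3 or more TET2 UMIs. Between the lines in cells without mitotic UMIs TGFA went to 0.0043, LRIG1 to 0.0065 and AREG to −0.17. With only cells without a TET2 UMI LRIG1 went to 0.018, EREG to −0.037 and AREG to −0.077, and with no block AREG went to −0.22. In the mitotic comparison TGFA went to −0.094 with upper-quartile factors and −0.023 with a limit of 2 UMIs.

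Without single libraries EGFR ranged from −0.43 to 0.51 over time. Between the lines LRIG1 ranged from −0.18 to 0.040 and AREG from −0.044 to 0.67. The interaction ranged from −1.96 to 0.36 for AREG and from −0.085 to 1.38 for EGFR. TGFA ranged from −0.056 to 0.055 in the comparison by mitotic UMIs. Outside minus inside ranged from −0.76 to 0.85 for AREG, −1.54 to 0.90 for HBEGF, −1.53 to 0.21 for ERRFI1, −0.71 to 4.47 for EREG, −2.55 to 5.04 for EGFR and −0.40 to 0.26 for TGFA. At 3 to 7 UMIs of EGFR in each SW620 library, a change over days in that line was not detectable.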

Other observations

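Co-detection of members within cells was counted after thinning to 2000 UMIs, beside the number that their shares would give if detection in a cell were independent. This is a description without a test, since cells of 1 library share their source. In SW620-TET2CD on day 15, 22 cells held both EREG and AREG, neighbouring genes on chromosome 4, where 5.99 would be given by the shares. The counts were 23 against 3.20 on day 6, 29 against 1.78 on day 9 and 10 against 0.928 on day 12. In SW620 they were 1, 6, 1 and 16 cells against 0.433, 0.925, 0.419 and 4.57. AREG and HBEGF shared 35 cells against 19.8 in SW620 on day 15 and 22 against 8.75 in SW620-TET2CD. AREG and ERRFI1 shared 108 against 70.5 and 55 against 36.1 on that day. ERBB3 and AREG, in contrast, shared 189 against 189 cells in SW620 and 105 against 112.9 in SW620-TET2CD on day 15. In SW620-TET2CD on day 9, AREG and HBEGF shared 11 cells against 1.05, and AREG and ERRFI1 13 against 1.37. HBEGF and ERRFI1 lie on other chromosomes than AREG. ERBB3 and AREG shared 10 against 14.7 in that library. In SW620-TET2CD on day 6, AREG and HBEGF shared 6 cells against 1.18, and AREG and ERRFI1 5 against 1.68. On day 12 they shared 8 against 1.63 and 31 against 9.28. AREG was thus also found more often with genes on other chromosomes. Relative to the expected number, EREG with AREG stood furthest above among these pairs in each SW620-TET2CD library. Many expected numbers are small. Cells with TET2 UMIs, higher in EREG, AREG and HBEGF, were pooled with the others, and their part was not tested.

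Other ligands of the family and ERBB4 had low counts. NRG4 was at 1.10 to 3.90 CPM, NRG2 at 0.447 to 1.02 CPM and BTC at 0.227 to 0.477 CPM in the 8 libraries, whereas NRG1 had at most 1 UMI in a library and ERBB4 at most 0.0392 CPM.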
